A study of Mus musculus with 49 samples.

Results

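The genes described here encode the subunits of glutamate and GABA receptors. They were chosen by name, from the genes of the expression table whose symbol starts with Gria, Grin, Grik, Grid, Grm, Gabra, Gabrb, Gabrg, Gabrd or Gabbr, and 28 of the 9020 genes listed are described. Of these, 17 encode subunits of glutamate receptors (AMPA, NMDA, kainate, delta and metabotropic) and 11 encode subunits of GABA receptors (GABA-A and GABA-B). Other genes of these families are not analysed here.

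The 49 cells were neurons in the primary somatosensory cortex (S1) of CD1 mice of WT (wild-type) genotype, which received FlashTag (FT) on E13.5 and were patched on P7. FT is a fluorescent dye injected into the embryonic ventricles, which marks cells dividing at the ventricular surface and thereby dates the birth of their daughter neurons, so that these neurons are isochronic. In Patchseq, the content of a cell is drawn into a patch pipette and its RNA is sequenced. All 49 cells form 1 condition and the labels name no animal, so they count as 1 sample here, and cells are described but not tested against each other.

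Glutamate opens AMPA, NMDA and kainate receptors, which are ion channels assembled from several subunits that excite the neuron, and it also acts on metabotropic receptors, which signal through G proteins. GABA opens the GABA-A receptor, a chloride channel usually built from alpha and beta subunits with a gamma or delta subunit, and acts on the metabotropic GABA-B receptor, which needs both of its subunits at the cell surface. In the developing cortex the subunits in use shift with age, the best known case being the NMDA receptor, in which GluN2B (Grin2b) precedes GluN2A (Grin2a).

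The level of a gene is given in RPM, the reads of the gene scaled to a common total for every cell. The reads came from 3′ ends of transcripts, whose number need not grow with transcript length, and the RPM were not divided by gene length. Orders between genes are also given per kb of exon, as an alternative scale and not as a correction. The shallowest cell had 209850 reads, the median cell 1240101 and the deepest 35342325, and 1 read was worth 0.0283 RPM in the deepest and 4.77 RPM in the shallowest cell. A gene was called present in a cell at 10 RPM or more. The range after a share of cells is its exact 95% interval (Clopper-Pearson), for counting error only. All 4 general neuron markers (Snap25, Syt1, Stmn2 and Map2) were present in 49 of 49 cells, at least 2 of 3 excitatory markers in 35 cells, and at least 2 of 11 inhibitory markers in 30. At least 2 markers of 1 glial class (astrocyte, oligodendrocyte lineage or microglia) were present in 27 cells, and hemoglobin genes took 1% or more of the reads in 8 cells and up to 68.8%. C1qb, a microglial gene that neurons are not known to use, was present in 11 of 49 cells (22.4%) and had at least 1 read in 38. A receptor gene found in no more cells than C1qb was therefore read as not above background, which at 10 RPM held for 5 of the 28 genes (Gabrb2, Grid1, Gabrd, Grik3 and Gabrg1).

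RefSeq gives, in build GRCm38.p6, windows from 250 bases before to 50 bases after the start of a gene, and 19 of the 28 genes had at least 1 of them. The first pair of sequences below shows the genes present in the most cells (Gria2) and in the fewest (Gabrg1) among those with a window, and the second pair shows Gabra4 and Gabrb1, which lie head to head on chromosome 5. Capitals mark the CG dinucleotides.
Gria2, chr3:80802786-80803085, minus strand: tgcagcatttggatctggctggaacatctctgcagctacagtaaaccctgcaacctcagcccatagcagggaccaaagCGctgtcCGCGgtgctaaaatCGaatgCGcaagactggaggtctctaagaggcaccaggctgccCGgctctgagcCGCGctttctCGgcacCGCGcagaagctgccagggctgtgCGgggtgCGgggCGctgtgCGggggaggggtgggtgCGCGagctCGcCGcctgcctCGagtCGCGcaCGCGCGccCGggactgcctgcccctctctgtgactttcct
Gabrg1, chr5:70842568-70842867, minus strand: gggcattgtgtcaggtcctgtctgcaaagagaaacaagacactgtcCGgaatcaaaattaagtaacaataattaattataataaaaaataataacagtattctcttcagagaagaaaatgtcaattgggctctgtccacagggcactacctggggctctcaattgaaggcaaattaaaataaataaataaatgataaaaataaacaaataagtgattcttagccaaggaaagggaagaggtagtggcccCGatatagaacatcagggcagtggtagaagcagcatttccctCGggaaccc
Gabra4, chr5:71658259-71658558, minus strand: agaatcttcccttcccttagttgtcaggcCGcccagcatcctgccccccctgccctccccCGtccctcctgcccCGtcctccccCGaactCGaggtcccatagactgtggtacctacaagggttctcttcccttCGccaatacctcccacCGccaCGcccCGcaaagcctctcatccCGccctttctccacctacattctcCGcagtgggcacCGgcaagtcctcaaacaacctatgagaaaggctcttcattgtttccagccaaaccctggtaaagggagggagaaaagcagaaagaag
Gabrb1, chr5:71657671-71657970, plus strand: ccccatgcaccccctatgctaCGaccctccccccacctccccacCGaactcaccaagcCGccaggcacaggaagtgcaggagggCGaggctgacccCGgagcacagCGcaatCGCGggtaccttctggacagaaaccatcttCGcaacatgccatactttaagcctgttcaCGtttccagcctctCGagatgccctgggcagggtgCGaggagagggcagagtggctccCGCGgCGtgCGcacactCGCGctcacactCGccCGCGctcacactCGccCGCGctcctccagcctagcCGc
The Gria2 window holds 26 CG dinucleotides, a number that 17% of all 32544 RefSeq windows reach. The Gabrg1 window holds 3, and 31% of all windows hold at most 3. The windows of Gabra4 and Gabrb1 hold 12 and 25 and together span 888 bases. Over the 24 windows of receptor genes the median was 12.5 CG dinucleotides and 60.8% GC, against 7 and 53.0% over all windows. The GC box motif GGGCGG, searched on both strands, was found in 13 of 24 windows (54.2%) and in 35.9% of all windows, and in those printed above it occurs in that of Gabra4 only. These are counts of letters and say nothing of the use of a promoter.

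All 28 receptor genes described had reads in isochronic E13.5-born neurons, but only Grin2b was present in every cell. That all had reads was fixed in advance, since each listed gene reaches 100 RPM in at least 2 cells. At 10 RPM, 11 of the 28 genes were present in at least 25 of 49 cells (39.3%), where the share over all 9020 genes was 38.2%. These 11 were Gria2, Gria1, Grin2b, Grin1, Grik5, Grm5, Grm7, Gabra2, Gabrb1, Gabbr1 and Gabbr2. With a limit of 1 read the number was 24 (85.7%, 80.6% over all genes), and with 100 RPM it was 4 (14.3%, 13.7% over all genes), namely Gria2, Grin2b, Grm5 and Gabbr1. At 1 read, however, C1qb was found in 38 cells, and 17 of the 28 genes were found in no more cells than that. As an alternative, genes were counted as present only where their reads were at least 5% of those in the rest of the pool, a rule that removes calls in shallow cells beside deep ones. Under this pool rule 5 of the 28 genes were present in at least 25 cells. The share over all genes was not computed under it, so this count is not read as a result about receptor genes. At the 3 limits set on all listed genes, the shares of receptor genes were close to those over all genes. Of the 1372 values (28 genes in 49 cells), 27.6% were 0, 26.7% were above 0 and below 10 RPM, 21.3% were from 10 to below 100 RPM, and 24.3% were at 100 RPM or more.

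**Figure D1:**
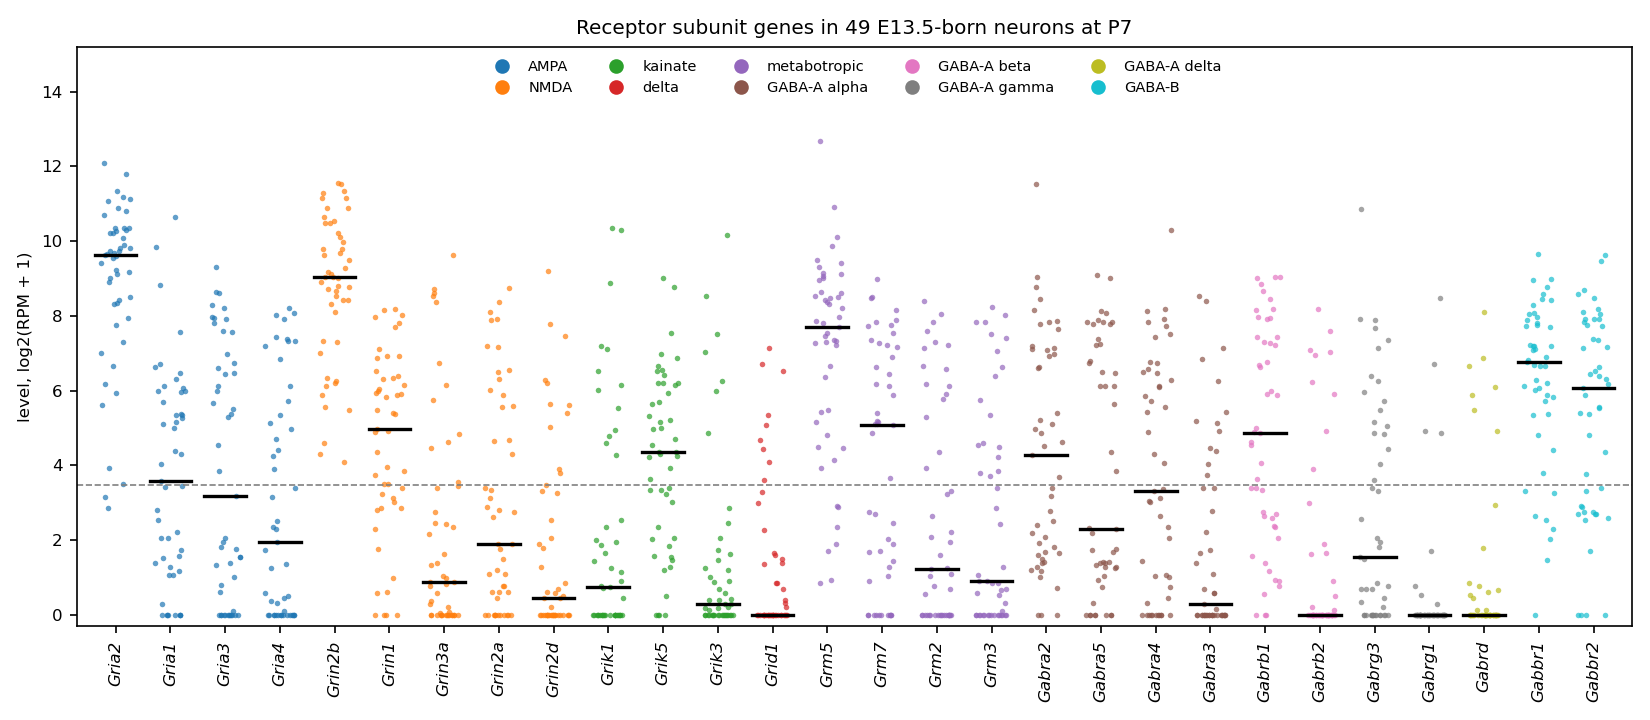
Level of each of the 28 receptor subunit genes, as log2(RPM + 1), with 1 point per cell (n = 49), the median as a black bar, colours for the receptor class and a dashed line at 10 RPM. Gria2, Grin2b and Grm5 have the highest medians (789, 522 and 208 RPM), and 4 genes have a median of 0.

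The highest levels were those of Gria2, Grin2b and Grm5, which together took a median of 56.2% of the summed RPM of the 28 genes in a cell (9.07% to 92.2%). Gria2 was the highest of the 28 genes in 22 cells, Grin2b in 19, Grm5 in 4 and another gene in 4. The order of the medians held in part when divided by exon length. Gria2 stayed first (50.7 RPM per kb), followed by Grin2b (21), Grm5 (20.3), Gabbr1 (13.8) and Gabbr2 (9.93), and the 10 genes with the highest median RPM were also the 10 highest per kb, with changes of order among the lower ones. The ranges of these genes over cells overlap widely, so neighbours in this order do not differ beyond their spread.

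Among AMPA receptor genes, Gria2 encodes the subunit whose edited form keeps calcium out of the channel. It was present in 47 of 49 cells (95.9%, 86.0% to 99.5%) and had at least 1 read in all 49, with a lowest value of 6.17, a median of 789 and a highest of 4406 RPM. Under the pool rule it was present in 30 cells (61.2%). Gria1, which is regulated during synaptic plasticity, was present in 25 cells (51.0%, 36.3% to 65.6%), with a median of 10.9 RPM and a highest value of 1604, and in 15 under the pool rule. Gria3 was present in 24 cells and Gria4 in 19, with medians of 8.04 and 2.86 RPM and highest values of 634 and 296. All 3 were at 0 in some cells, whereas Gria2 was not.

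At least 1 AMPA gene was present in 48 of 49 cells (98.0%, 89.1% to 99.9%). Gria2 had the highest RPM of the 4 genes in 44 of these 48 cells (91.7%, 80.0% to 97.7%), Gria1 in 3 and Gria4 in 1. Per kb of exon, Gria2 led in 41, Gria1 in 6 and Gria4 in 1. The leading gene took a median of 85.8% of the AMPA RPM of a cell. In the cell led by Gria4 (IL09 of library pool 4), Gria4 had 296 RPM and Gria2 6.17. The 4 genes occurred in 10 of 16 possible combinations, and all 4 were present together in 9 cells.

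NMDA receptors need the obligatory GluN1 subunit (Grin1) with GluN2 or GluN3 subunits. Of the 28 genes, only Grin2b was present in all 49 cells (100%, 92.7% to 100%), with a lowest value of 15.8, a median of 522 and a highest of 3036 RPM. Under the pool rule it was present in 27 cells (55.1%). Grin2a, its later counterpart, was present in 17 cells (34.7%, 21.7% to 49.6%), with a median of 2.72 RPM and a highest value of 426. Grin2b exceeded Grin2a in 48 of 49 cells (98.0%, 89.1% to 99.9%), and per kb of exon in 47. The exception was the cell IL07 of library pool 5, with 46.9 RPM of Grin2a and 46.2 of Grin2b, values that are nearly equal. In the 17 cells with both genes present, the ratio of Grin2b to Grin2a had a median of 9.74 and ranged from 0.986 to 54.6, and it was at least 2 in 14 of them.

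Grin2b led the 3 Grin2 genes in 47 cells, and in 26 cells it was the only one present. Grin2d, whose GluN2D subunit gives slow channels and is known from interneurons, was present in 12 cells with a median of 0.355 and a highest value of 584 RPM, and it led in 1 cell. Grin3a, a subunit that lowers calcium entry, was present in 12 cells, with a median of 0.830 and a highest value of 790 RPM. The obligatory Grin1 was less widely present than Grin2b, in 33 cells (67.3%, 52.5% to 80.1%), with a median of 30.5 and a highest value of 287 RPM. In 16 cells Grin1 was under 10 RPM, of which 12 had at least 1 read and 4 had 0. Grin1 with a Grin2 gene was accordingly found in 33 of 49 cells (67.3%). At a limit of 1 read it was found in 91.8%, and under the pool rule in 40.8%.

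**Figure D2:**
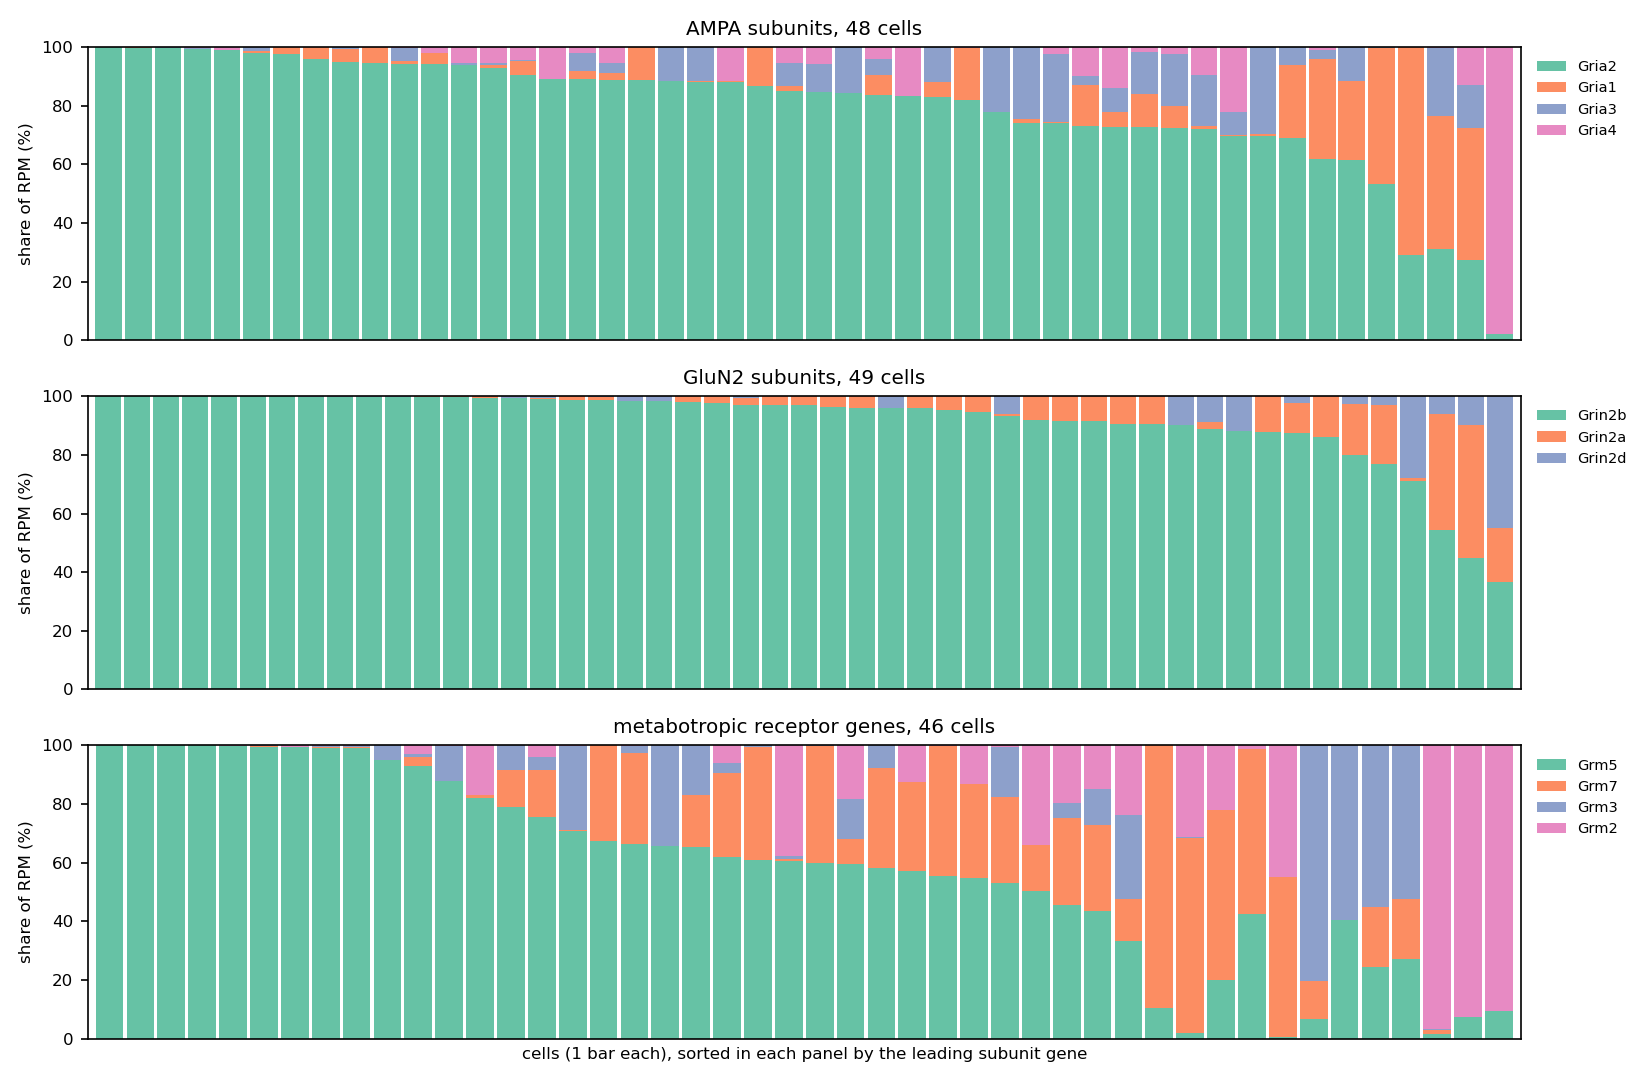
Share of the summed RPM taken by each gene described of the AMPA (Gria), GluN2 (Grin2) and metabotropic (Grm) receptors, with 1 bar per cell that has a gene of the panel at 10 RPM or more. Gria2 leads in 44 of 48 cells and Grin2b in 47 of 49, whereas Grm5 leads in 34 of 46 and each of the other three Grm genes in 3 to 5.

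Among the kainate and delta receptor genes, Grik5 was found in the most cells. Grik5, which encodes a subunit that works only with other kainate subunits, was present in 30 cells (61.2%, 46.2% to 74.8%), with a median of 19.4 and a highest value of 512 RPM. Grik1 and Grik3, which can form channels of their own, were present in 13 and 7 cells, with medians of 0.653 and 0.208 RPM. Their highest values were large, 1313 RPM for Grik1 and 1153 RPM for Grik3. Grik5 led in 21 of the 35 cells with a kainate gene, Grik1 in 10 and Grik3 in 4. Grid1, of receptors that organize synapses through secreted partners, was present in 9 cells and had a median of 0.

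Of the metabotropic glutamate receptors, Grm5 belongs to the group that raises intracellular calcium. Grm5 was present in 42 cells (85.7%, 72.8% to 94.1%) and had at least 1 read in all 49, with a lowest value of 0.798, a median of 208 and a highest of 6532 RPM. The highest Grm5 value, 3.37 times the next, rests on 1472 reads in a cell with only 225363 reads in all (IL12 of library pool 1).

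Grm2, Grm3 and Grm7 encode receptors that lower cyclic AMP. Grm7, found at presynaptic active zones, was present in 27 cells (55.1%, 40.2% to 69.3%), with a median of 32.8 and a highest value of 509 RPM. Grm2 and Grm3 were present in 16 and 18 cells, with medians of 1.33 and 0.856 RPM. Among these 4 genes, Grm5 led in 34 of the 46 cells with at least 1 of them, Grm7 in 5, Grm3 in 4 and Grm2 in 3. Per kb of exon the order was less one-sided, with Grm5 leading in 21 cells, Grm7 in 12, Grm3 in 8 and Grm2 in 5. The leading gene took a median of 66.4% of the RPM of the 4 genes, against 97% for the leading Grin2 gene, and they occurred in 11 of 16 possible combinations.

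The alpha subunits set much of the pharmacology of the GABA-A receptor. Gabra2, which is prominent in the perinatal cortex, was present in 26 cells (53.1%, 38.3% to 67.5%), with a median of 18.3 and a highest value of 2979 RPM, and in 17 cells under the pool rule. Gabra5, known from extrasynaptic receptors, and Gabra4, which often joins the delta subunit, were each present in 23 cells, with medians of 3.89 and 8.87 RPM. Gabra3 was present in 13 cells, with a median of 0.214 RPM and a highest value of 368. All 4 were at 0 in some cells, and their ranges overlap. Gabra5 was present in 7 of 9 cells of library pool 3 and in 1 of 10 cells of pool 5, and the part of the pools in this was not tested.

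Of the beta, gamma and delta genes, Gabrb1 was present in 29 cells (59.2%, 44.2% to 73.0%), with a median of 28.2 and a highest value of 530 RPM. Gabrb2, common in the adult, was present in 9 cells with a median of 0 and a highest value of 290 RPM. Gabrg3 was present in 18 cells and Gabrg1 in 4, with highest values of 1861 and 354 RPM. Gabrd, of extrasynaptic receptors, was present in 7 cells with a median of 0. Gabrb2 and Gabrd were at 0 in 32 cells each and Gabrg1 in 41.

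Both subunits of the GABA-B receptor, of which Gabbr1 binds GABA and Gabbr2 couples to the G protein, were present in 30 cells (61.2%, 46.2% to 74.8%), and in 18 under the pool rule. Gabbr1 was present in 41 cells with a median of 107 and a highest value of 810 RPM, and Gabbr2 in 33 with a median of 66.4 and a highest value of 797 RPM. Gabbr1 without Gabbr2 was found in 11 cells, the reverse in 3 and neither in 5. An AMPA gene, Grin1 with a Grin2 gene and both GABA-B genes were all present in 21 of 49 cells. Across the library pools, Grin1 with a Grin2 gene ranged from 4 of 9 to 9 of 10 cells and the GABA-B pair from 4 of 10 to 8 of 9.

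**Figure D3:**
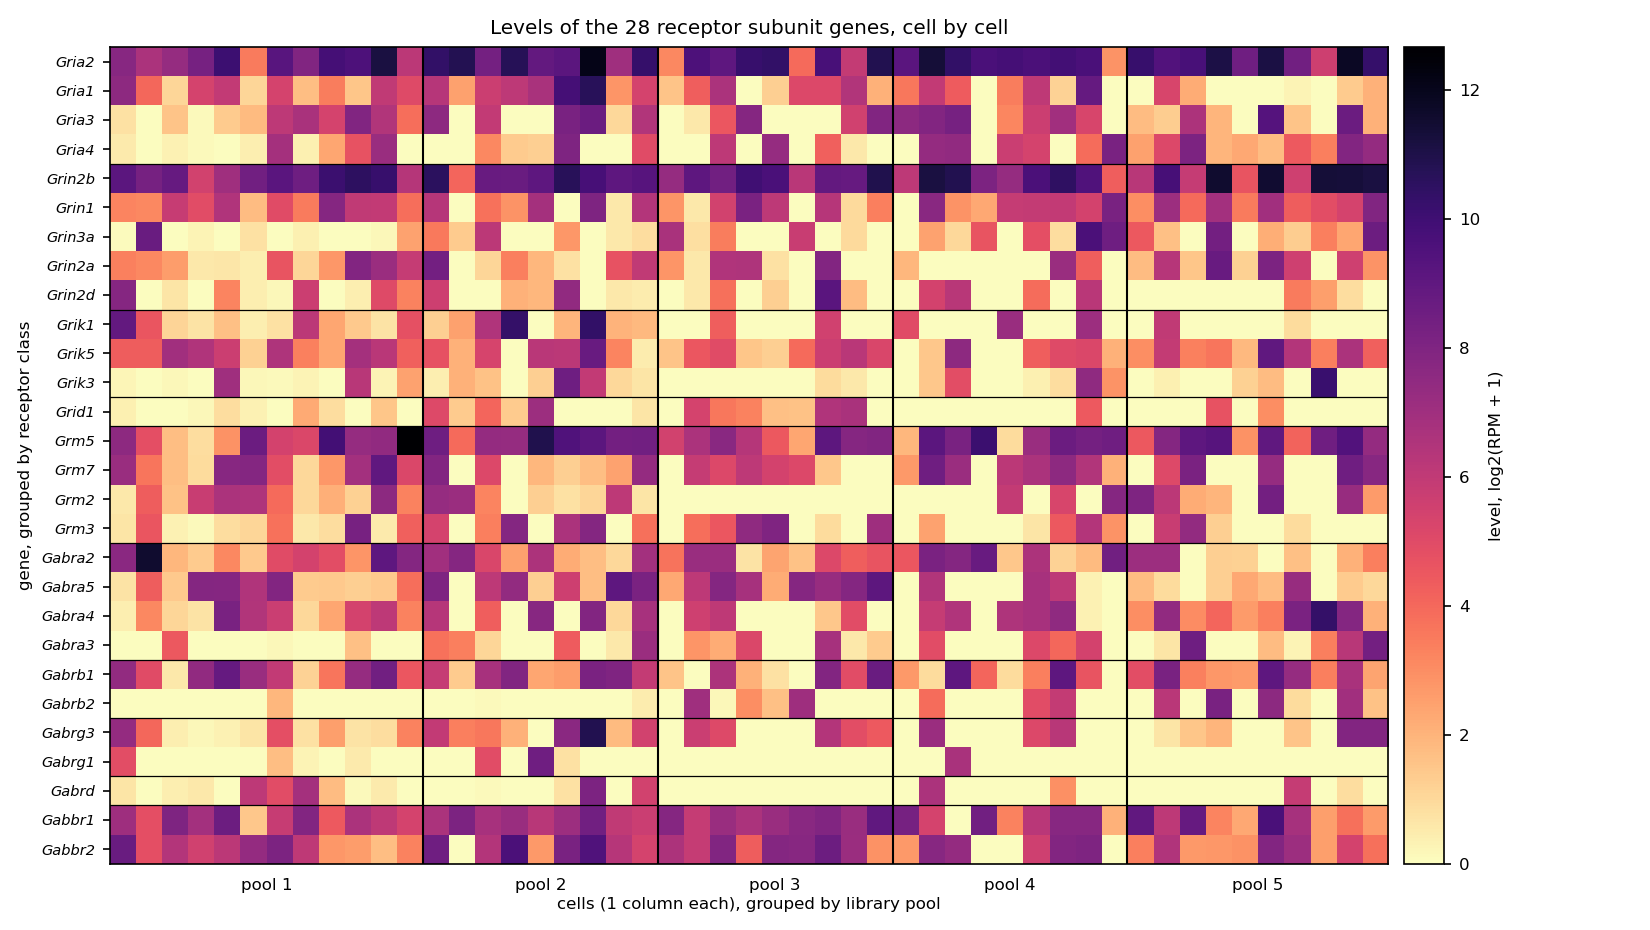
Level of the 28 receptor subunit genes, as log2(RPM + 1), in each of the 49 cells (columns, grouped by library pool) and with genes in rows grouped by receptor class. The rows of Gria2, Grin2b and Grm5 are dark in most cells of all 5 pools, whereas the rows of the Gabra genes vary from cell to cell.

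No 2 cells had the same set of receptor genes, with 49 distinct profiles of presence in 49 cells. The share of genes present in both cells of a pair, among those present in either, had a median of 39.1% over 1176 pairs and ranged from 7.69% to 87.5%. With 28 genes and cells of unequal depth, distinct profiles would arise for many sets of genes. No other set was compared, so these values are not read as particular to receptor genes or as diversity between neurons. A cell held between 3 and 22 of the 28 genes, with a median of 13, and the medians of the 5 library pools lay between 10.5 and 15. The cell with the most hemoglobin reads held 6, with 158.6 RPM of Grin2b and 7.93 of Gria2.

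The number of receptor genes per cell went with depth and with how many genes were found in general. Across the 49 cells, Pearson's r between log10 reads and the number of receptor genes with at least 1 read was 0.80 (Spearman's rho 0.86), and at 10 RPM it was 0.46 (rho 0.50). With the number of all listed genes at 10 RPM or more in the cell, r was 0.79 (rho 0.77). These are descriptions of cells that share libraries. When each cell was thinned to 358412 reads, which 44 cells reached, the median was 14 receptor genes at 10 RPM (2 to 21), and r with the original log10 reads was 0.43.

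**Figure D4:**
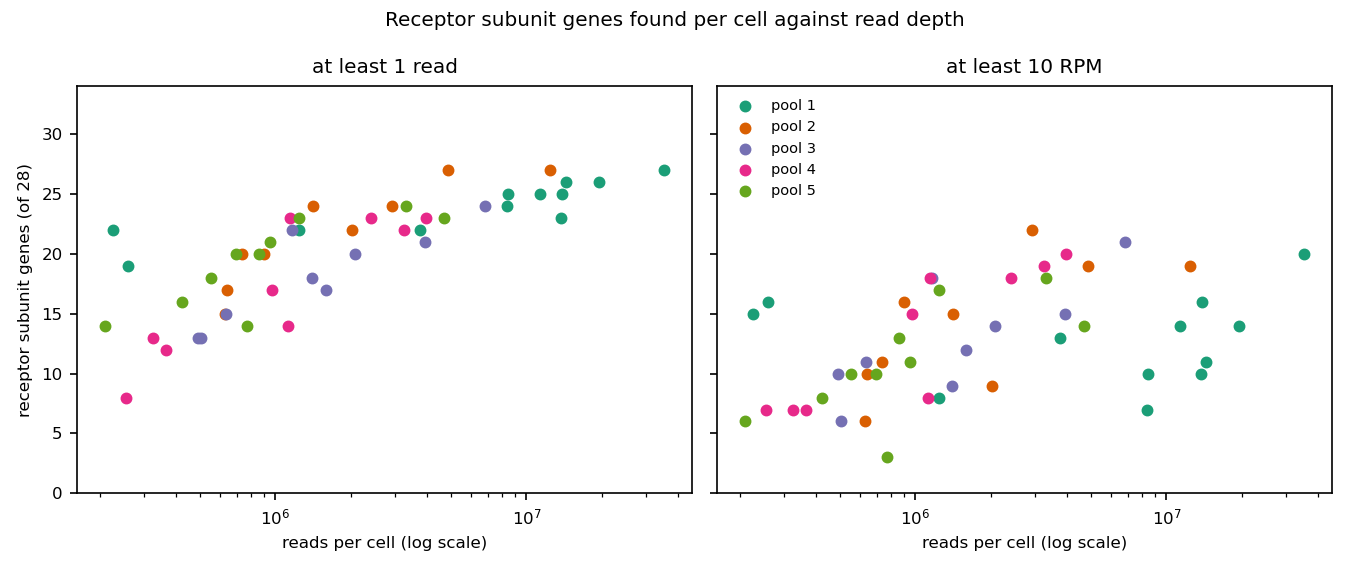
Number of receptor subunit genes (of 28) with at least 1 read (left) and at 10 RPM or more (right) against reads per cell on a log axis, with 1 point per cell coloured by library pool. The number rises with depth on the left (r = 0.80) and less closely on the right (r = 0.46).

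Of the single highest values of the 28 genes, 5 lay in the cell IL07 of library pool 2 (Gria2, Gria1, Gabrd, Gabrg3 and Grik1), 4 in the cell IL06 of pool 5 (Gria3, Gabbr1, Grik5 and Grm2) and 3 in the cell IL04 of pool 5 (Gabrb2, Grin2b and Grin2a). In the first, Gabrg3 reached 1861 RPM, 7.74 times the next cell. Gabra2 (2979 RPM) was 5.64 times and Gabra4 (1268 RPM) 4.38 times its next highest value. The cells with the highest Gabra2 and Gabra4 had 258130 and 209850 reads, so these peaks rest on 769 and 266 reads.

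Pairs of receptor genes were compared over the 49 cells on the log2(RPM + 1) scale for the 14 genes present in at least 20 cells. The median of the 91 Pearson's r was 0.19, against 0.12 for pairs of the 4642 listed genes present as widely. The 5 highest were Grin2b with Grm5 (0.51), Gabra5 with Gabbr2 (0.50), Gria3 with Grin2b (0.49), Gabrb1 with Grik5 (0.48) and Gria1 with Gabbr2 (0.48). The lowest were Gabra4 with Gabbr1 (-0.31), Gabra2 with Gabbr2 (-0.18), Gabbr1 with Grm7 (-0.16), Gabbr1 with Grin1 (-0.15) and Gabbr1 with Grm5 (-0.14). For pairs of all those genes, 95% of values lay between -0.22 and 0.44. The cells share depth and pools, so these values describe the cells and no more is read from the weaker ones.

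Pairs of neighbouring GABA-A genes were compared with coordinates on GRCm38 (GENCODE). Gabra4 (chr5:71569749-71658308) and Gabrb1 (chr5:71658113-72149037), whose start windows are printed above, overlap by 196 bases at their starts and run in opposite directions, so reads in the overlap could not be told apart if counting ignored the strand. The reads, however, came from 3′ ends and not from starts, and the part of the overlap was not tested. Gabra4 and Gabrb1 were both present in 16 cells, where independent genes of the same frequencies would give 13.6, and r was 0.34. Gabra5 and Gabrg3 on chromosome 7 were both present in 14 cells, against 8.45, with an r of 0.30. Gabra2 and Gabrg1 on chromosome 5 were both present in 4 cells, against 2.12, with an r of 0.25, and these were all the cells with Gabrg1. However, Gabrg1 was read as not above background, and Gabrg1 and Gabrg3 were present in fewer than the 20 cells required for correlations above. Also on chromosome 5, r was 0.01 for Gabra2 with Gabra4 and -0.03 for Gabra2 with Gabrb1. No tendency of neighbouring genes to be present together is read from these pairs.

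The cells were also compared by their markers of inhibitory neurons. Of the 49 cells, 5 had at least 2 of the 11 inhibitory markers and none of the 3 excitatory markers at 10 RPM, and 4 of these 5 also had at least 2 markers of 1 glial class, whose part in the values was not tested. These cells and the genes named for them were chosen after their values were seen, so the values are a description. Grin2d was at 219, 0, 174, 584 and 72.3 RPM in the 5 cells, and the 3 cells of all 49 that reached 100 RPM were among them. In the other 44 cells Grin2d was present in 8 (18.2%), and reached at most 76.5 RPM. A gene was listed only if it reached 100 RPM in at least 2 cells, and Grin2d did so only among the 5 cells. Its contrast with the other 44 cells is thus partly set by that filter and is no support for a link. The cell at 0 had only 2 inhibitory markers present, Slc32a1 at 28.2 and Vip at 82.4 RPM, whereas the others had 6 to 8. Among all 49 cells, the cell with the most inhibitory markers (10 of 11) was at 0. It also had 2 excitatory markers and 5 markers of each glial class, so its markers do not tell its type. Grik1 was at 474, 0, 2.84, 45.7 and 137 RPM in the same order of cells, and it was present in 10 of the other 44 (22.7%), with a highest value of 1313 RPM.

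**Figure D5:**
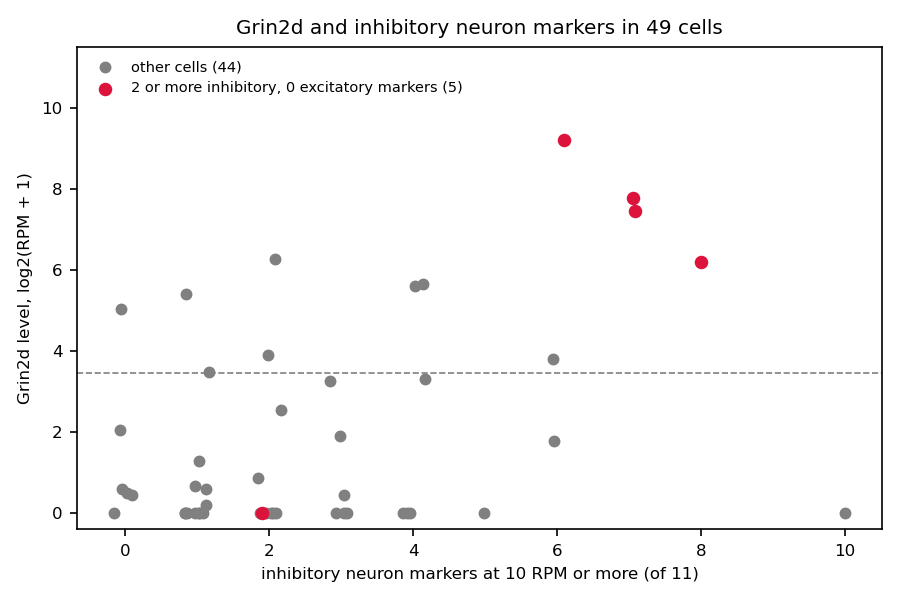
Level of Grin2d, as log2(RPM + 1), against the number of inhibitory neuron markers (of 11) present in the cell, with 1 point per cell (n = 49), shifted at random along x for legibility, and a dashed line at 10 RPM. The 5 cells with at least 2 inhibitory and no excitatory markers (red) include the 3 cells above 100 RPM, and 1 of them is at 0. Grin2d passed the limit for listing a gene only through the cells above 100 RPM.

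Gabra4, Gabrb2, Gria2 and Grin2b in these 5 cells are set beside the other 44. Gabra4 was below 10 RPM in all 5, with a highest value of 7.06 RPM, and present in 23 of the other 44 cells (52.3%). Gabrb2 was at 0 in all 5 and present in 9 of 44 (20.5%). Gria2 and Grin2b were present in all 5, with medians of 813 and 557 RPM, against 782 and 519 RPM in the other 44.

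Laminar markers were set beside the receptor genes in 112 pairs (4 markers, 28 genes). The pairs named first are those with the largest departures. Grm3 was present in 10 of the 13 cells with Tle4, a marker of layer 6, and in 18 cells in all, where independence would give 4.78 shared cells. Grm7 was present in 19 of the 26 cells with Cux1, a marker of superficial layers (14.3 if independent) and Gabrb1 in 20 (15.4). The other markers did not repeat this division by layer. With Tbr1, whose protein the paper lists as enriched in deep layers, Grm3 shared 6 cells (5.88 if independent). Grm7 was also above independence with Tle4 (10 cells, 7.16 if independent) and with Tbr1, and below it with Bcl11b. No link of a receptor gene to a layer is read from these pairs. The number of genes found differed between cells, and its part in these overlaps was not tested.

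Of 44 genes listed as partners of these receptors, 38 were in the table and 23 of them (60.5%) were present in at least 25 cells, where the share over all genes was 38.2%. The partner genes were chosen with earlier results of these data known, so the difference between these shares is not read as a result. AMPA receptor auxiliary genes reached this in 5 of 8 cases, with Cnih2 and Olfm1, which change the trafficking and gating of the receptor or bind to it, in 47 cells each (medians 297 and 432 RPM), and the TARP gene Cacng2 in 35. Scaffolds of excitatory synapses did so in 9 of 16 cases, led by Shank1 (48 cells, median 417 RPM) and Dlgap4 (47 cells, 291 RPM), and Dlg4, which encodes PSD-95, was present in 29. Inhibitory scaffold and trafficking genes did so in 7 of 8 cases, with Gabarap in 49 cells (median 289 RPM) and Gphn, which encodes gephyrin, in 28 (22.2 RPM). Of the auxiliary genes of the GABA-B receptor, Kctd12 was present in 20 cells and Kctd8 in 7, and of those of kainate receptors, Neto2 in 30 and Neto1 in 8.

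The direction of the GABA-A current depends on chloride transporters, whose balance changes after birth. Slc12a5, which encodes the chloride exporter KCC2, was present in 29 of 49 cells with a median of 40.1 RPM. Slc12a2, which encodes the importer NKCC1, was present in 12 with a median of 0.580 RPM. Slc12a5 had the higher RPM in 38 of 49 cells.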

How the data were processed

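The contents of 49 FT-labelled neurons were amplified with the SMART-Seq 3′ DE kit, which gives no molecular identifiers, and read in 5 library pools of 12, 9, 9, 9 and 10 cells. Per the submitters' processing notes, the authors used STAR and HTSeq with mm10 (GRCm38). Tool versions, annotation and strand setting were not given in the sources used here. The deposited values are RPM, normalized by the authors to the reads of each cell. Each gene of the table reaches 100 RPM in at least 2 cells.

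Each value was divided by the RPM worth of 1 read in its cell, which gave whole reads (to a tolerance of 0.01) for 100% of the nonzero values. The same step was tested on simulated data, where it returned all 441980 values. The design allowed no test. Genes were named by the pattern of their symbols, of which 5 matches are not reported here, partner genes and markers from lists, and pairs as the 5 highest and 5 lowest correlations among genes present in at least 20 cells. Members and lists were chosen with earlier results of these data known. Genes singled out in cells with inhibitory markers and in pairs with laminar markers were chosen after their values were seen. Levels on the log2 scale had a pseudocount of 1. Intervals have a confidence level of 95% and take cells as independent, and depth limits what a 0 means, since 1 read was worth up to 4.77 RPM.

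The alternatives were other limits for presence, thinning, other totals including edgeR's TMM factors, leaving out pools or cells, a limit set against reads of the rest of the pool, other pseudocounts and scaling by exon length. Computations used edgeR 4.0.16 in R 4.3.3, and matplotlib 3.10.9, scipy 1.17.1, numpy 2.4.6 and pandas 2.3.3 in Python 3.11.15.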

Additional observations from a re-analysis of the deposited data

How the results depend on the processing

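At 1 read, the NMDA set (Grin1 with a Grin2 gene) was present in 91.8% of cells, the GABA-B pair in 89.8% and an AMPA gene in 100%, 24 genes were present in at least 25 cells, and the median was 22 genes per cell. At 1 RPM these shares were 85.7%, 89.8% and 100%, with 18 genes present widely and a median of 18 per cell. At 100 RPM they were 18.4%, 28.6% and 87.8%, with 4 genes present widely and a median of 6, and Grin2b exceeded Grin2a in 100% of the 39 cells with either gene. With a gene counted only where its reads were at least 5% of those in the rest of the pool, they were 40.8%, 36.7% and 73.5%, with 5 genes present widely, and Grin2b was present in 55.1% and Gria2 in 61.2%. This rule removes calls in shallow cells beside deep ones by construction and left 483 of 626 calls. At 1 RPM and under the pool rule the share over all genes was not computed, so those counts of widely present genes describe the limits only. A total without hemoglobin and mitochondrial genes, TMM factors and leaving out the 8 cells rich in hemoglobin gave an AMPA gene in 100%, and thinning put Grin2b above Grin2a in 100% of 44 cells.

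Leaving out each library pool gave 97.3% to 100% for an AMPA gene and 97.3% to 100% for Grin2b above Grin2a. Another alternative kept the 12 cells with fewer than 2 inhibitory markers and fewer than 2 markers of each glial class. They were not free of such markers. In these 12 cells, an AMPA gene was present, Gria2 led and Grin2b exceeded Grin2a in 100%. In the same 12 cells Grin2a was present in 58.3%, Gabra5 in 66.7%, Gabrd in 33.3%, Grik1, Grin3a and Grid1 in 8.33% each, and Grik3 and Gabrg1 in 0 of 12, which allows a share of up to 26.5% (exact 95% interval). The median correlation was 0.17 with a pseudocount of 10 and 0.17 in thinned cells. That alternative and the leading genes per kb of exon were added after seeing the data. For these and the other results, 81 values stayed within the interval or spread of the reported ones and 30 moved. For single genes, 28 of 28 shares of cells stayed within their interval at 10 reads, after thinning and with both other totals. The same held without each pool and without cells rich in hemoglobin. By contrast, 8 moved under the pool rule, 26 at 1 read, 22 at 1 RPM and 25 at 100 RPM. In the 12 cells with fewer than 2 inhibitory markers and fewer than 2 of each glial class, 11 moved. The alternatives reuse the same cells and the intervals are wide, so staying within them is weak evidence of stability. Other causes were not tested. No paired analysis was possible because the series holds a single condition.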
